A study of Mus musculus with 5 samples.

Results

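The imprinted domain that holds H19, Igf2, Kcnq1 and Cdkn1c was described as the set of WT1 peaks that overlap chr7:149700000-150700000 in the mouse build mm9. Members were taken by position alone, whatever their signal. The window held 92 of the 622792 peaks in 4 WT1 peak lists: 3 in M15 replicate 1, 5 in M15 replicate 2, 56 in KTS-minus replicate 1 and 28 in KTS-minus replicate 2.

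WT1 occupancy was mapped by CUT&RUN, in which an antibody on permeabilised cells directs a nuclease to the bound protein so that the DNA beside it is released and sequenced. M15 cells come from the epithelium of mouse mesonephros and were transformed by the large T protein of polyoma virus, and KTS-minus is a line derived from it by editing of the KTS isoforms of WT1. All cells carried the viral transformation, and all 4 lists came from the same anti-WT1 antibody, with 2 libraries per line. The series also names an IgG library of M15 cells, which was not analysed here. The labels do not say which WT1 isoform the edited cells make, whether the line is a single clone, or whether the replicates are separate cultures, and their spread may then be technical only.

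H19 is a noncoding RNA made from the maternal chromosome, and Igf2 is a fetal growth factor made from the paternal one. A differentially methylated control region next to H19 is bound by CTCF on the maternal chromosome and decides which of the 2 genes reaches their shared enhancers. Further along the domain, Kcnq1 encodes a voltage-gated potassium channel. Its antisense transcript Kcnq1ot1 is made from the paternal chromosome and silences neighbours there, among them Cdkn1c, an inhibitor of cyclin-dependent kinases that restrains growth. The human counterpart is altered in Wilms tumour and in Beckwith-Wiedemann syndrome, and WT1 has long been studied as a regulator of Igf2.

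No peak of any list lay over the rounded position of H19, Igf2 or Cdkn1c. For H19 and Cdkn1c that position is a single base, so a peak on the gene itself is not excluded. The sites that recurred in all 4 lists were 3 regions between Igf2 and Cdkn1c. They fell within 63.1 kb, or 6.31% of the window. The number rests on overlapping whole peaks by 1 bp or more: it was 1 with a 50% reciprocal overlap or in the upper 50% of each list by total signal. It was 0 in lists of equal length or when overlap was asked of the stretch of highest signal alone. Within 10 kb of the positions used for H19, Igf2 and Cdkn1c, peaks occurred only in KTS-minus lists. Kcnq1 has no separate position here, so peaks near it were not counted. The KTS-minus lists were also the long lists: they held 310999 and 244428 peaks, and the M15 lists held 6440 and 60925. A peak that is missing from a short list therefore does not show that WT1 is missing from the site.

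**Figure D1:**
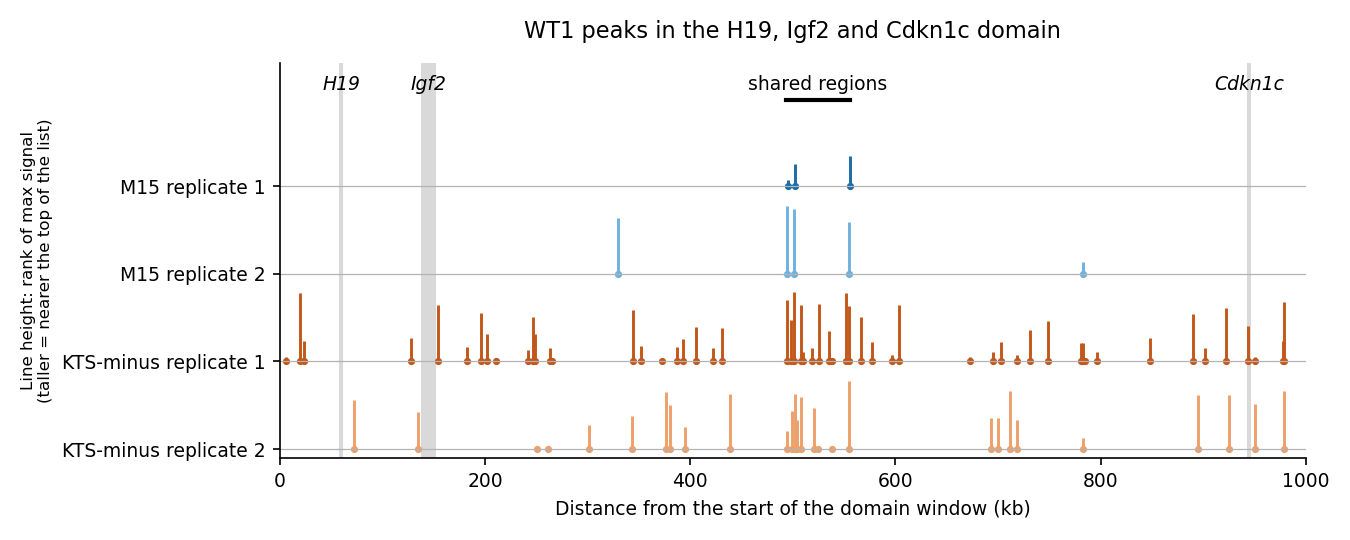
Peaks of each library along the window, as distance from its start in kb. Each line is 1 peak, and its height gives the rank of its max signal inside its own list, so heights are not comparable in absolute signal between libraries. Grey bars mark the approximate gene positions and the black bar marks the span of the 3 shared regions, which held all 3 peaks of M15 replicate 1 and 3 of 5 of M15 replicate 2.

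Of the 4 members, Igf2 alone had promoter sequence at hand. RefSeq promoter windows of 300 bases, 250 before to 50 after each transcript start in the later build GRCm38.p6, held 4 starts of Igf2 and none of H19, Kcnq1 or Cdkn1c. The windows were searched on both strands for letters related to the sites of WT1 and of the EGR factors, whose zinc fingers resemble those of WT1: GCGTGGGNG, GCGGGGGCG, GTGGGAGG and CCNCCCCC. The last of these can overlap a reverse match of GCGGGGGCG. Neither GCGTGGGNG nor GCGGGGGCG occurred in the 4 Igf2 windows, and they occurred in 1.90% and 2.91% of all 32851 windows. GTGGGAGG occurred in 1 Igf2 window and in 4.52% of all windows. CCNCCCCC occurred in 2 Igf2 windows and in 24.7% of all windows. These 2 windows had a GC content of 64.7% and 63.3%, against a median of 52.7% over all windows. The shares over all windows were not matched for GC content. The 2 windows with a match are shown because Igf2 is the member best known as a candidate WT1 target. Capitals mark the matches. In the upper sequence (chr7:142658755-142659054, minus strand) both matches are CCNCCCCC on the strand shown. In the lower one (chr7:142657447-142657746, minus strand) GTGGGAGG lies on the reverse strand at bases 63 to 70, counted from the first base, and the other 4 runs are CCNCCCCC on either strand.
Igf2 window 3: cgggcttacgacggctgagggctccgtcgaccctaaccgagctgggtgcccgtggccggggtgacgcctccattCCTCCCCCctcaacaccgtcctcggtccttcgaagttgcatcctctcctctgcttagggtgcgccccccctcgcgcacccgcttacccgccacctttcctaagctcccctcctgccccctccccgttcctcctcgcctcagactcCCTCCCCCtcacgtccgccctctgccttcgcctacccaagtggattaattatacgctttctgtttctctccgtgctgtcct
Igf2 window 4: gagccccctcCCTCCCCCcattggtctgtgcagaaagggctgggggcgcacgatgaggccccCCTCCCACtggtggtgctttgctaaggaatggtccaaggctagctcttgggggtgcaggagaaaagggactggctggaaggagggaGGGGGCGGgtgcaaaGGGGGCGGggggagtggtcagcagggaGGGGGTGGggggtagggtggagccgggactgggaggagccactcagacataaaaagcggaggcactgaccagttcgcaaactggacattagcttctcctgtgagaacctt
A match is a description of letters and not a bound site. Coordinates of GRCm38.p6 were not converted to mm9, so no peak was placed on these windows.

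H19 had no peak within 10 kb of its position, near 149.76 Mb, in any of the 4 lists. The nearest peaks lay 90.4 kb and 91.7 kb away in M15 replicates 1 and 2, both before the window, and 35.4 kb and 12.1 kb away in KTS-minus replicates 1 and 2. The KTS-minus replicate 1 peak ran from 149723462 to 149724589 and had a max signal of 11. The replicate 2 peak, on the other side of the H19 position, ran from 149772054 to 149772444 and had a max signal of 25. Max signal is the highest coverage in a peak, in the coverage units of its own list. The stretch without a peak around H19 measured 103.2 kb in KTS-minus replicate 1 and 84.7 kb in KTS-minus replicate 2. This compares with a median gap between peaks of 9.76 kb and 15.3 kb on chromosome 7. Gaps at least that long made up 2.54% and 5.99% of the gaps of the chromosome but held 21.2% and 30.6% of its bases. In the M15 lists the gap was 524.4 kb and 360.9 kb, and gaps at least that long held 85.1% and 56.2% of the bases. Steps of 1 kb with no peak within 10 kb in any of the 4 lists made up 31.3% of chromosome 7, and H19 is 1 such place. Whether reads could be mapped in these gaps was not tested.

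Igf2, taken as the interval from 149.84 to 149.85 Mb, held no peak in any list. Within 10 kb of it there was 1 peak in each KTS-minus library and none in the M15 libraries. The KTS-minus replicate 1 peak lay 3.89 kb after the interval, from 149853893 to 149854502, with a max signal of 17. The replicate 2 peak lay 5.04 kb before it, from 149833923 to 149834964, with a max signal of 21. The peaks thus stood on opposite sides of this rounded interval and did not overlap, and no region near Igf2 was listed in more than 1 library. The nearest M15 peaks were 170.4 kb and 171.7 kb away in replicates 1 and 2. Between the neighbourhoods of H19 and Igf2, a stretch of 60 kb, each KTS-minus list had 1 peak and the M15 lists had none.

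Cdkn1c, near 150.645 Mb, had 2 peaks within 10 kb in KTS-minus replicate 1, 1 in KTS-minus replicate 2 and none in the M15 lists. The nearest in replicate 1 ran from 150643346 to 150644094, 0.906 kb before the position, with a max signal of 13 and no overlapping peak in replicate 2. The second replicate 1 peak and the replicate 2 peak overlapped in a region from 150650308 to 150651294, 5.31 kb after the position. Its max signal was 8 in replicate 1, which put it 93.9% down the list, and 24 in replicate 2, which put it 35.7% down. This was the only region within 10 kb of the position of H19, Igf2 or Cdkn1c that 2 libraries shared. The nearest M15 peaks lay 370.4 kb and 89.96 kb away, after the window.

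The gene positions are rounded ones, so differences of a few kb between a peak and a gene cannot be read from them. A KTS-minus peak within 10 kb of a place was common on the chromosome. Shares at shorter distances, or around an interval as wide as that of Igf2, were not counted. Of 152523 steps of 1 kb on chromosome 7, 51.6% had a peak within 10 kb in KTS-minus replicate 1 and 45.5% in KTS-minus replicate 2. The M15 shares were 2.89% and 11.1% in replicates 1 and 2.

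**Figure D2:**
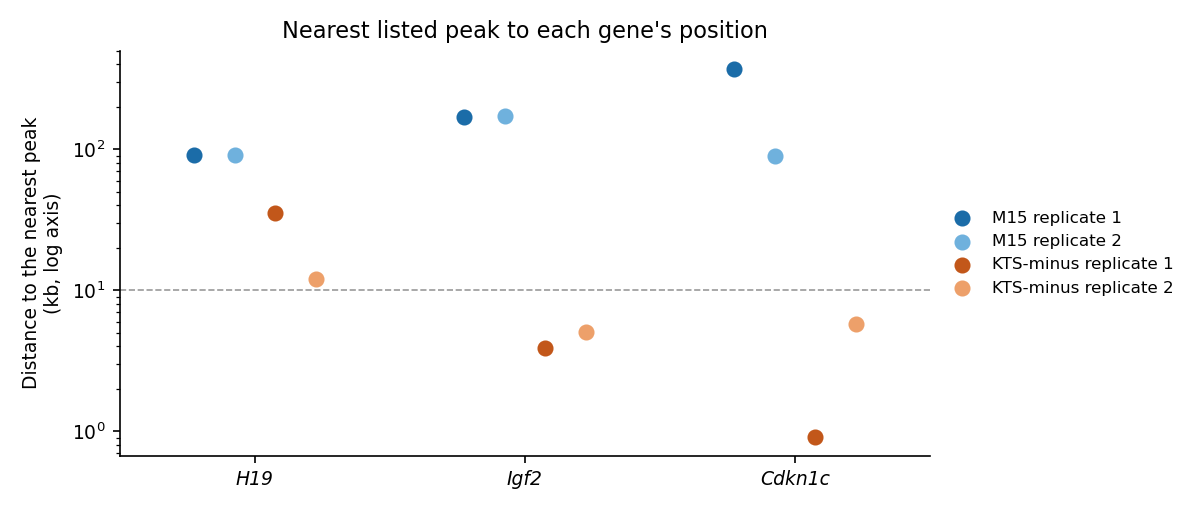
Distance in kb, on a log axis, from the position of each gene to the nearest peak of each library. The dashed line marks 10 kb. No library lies under it at H19, and both KTS-minus libraries lie under it at Igf2 and Cdkn1c.

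Kcnq1 has no separate position here and lies in the interval between Igf2 and Cdkn1c. In RefSeq's gene order that interval runs from Igf2 through Ins2, Th, Ascl2, Tspan32, Cd81, Tssc4 and Trpm5 to Kcnq1 with Kcnq1ot1, and then Cdkn1c. Leaving out 10 kb at each end, the interval spans 775 kb and held all 3 peaks of M15 replicate 1, all 5 of M15 replicate 2, 47 of 56 in KTS-minus replicate 1 and 24 of 28 in KTS-minus replicate 2. The peaks were not assigned to any of these genes.

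The 92 peaks merged into 75 regions when peaks sharing at least 1 bp were joined. All 4 lists had a peak in 3 of them, or 4.0% (95% Wilson interval 1.37 to 11.1), against 1.17% of the 455287 regions on all chromosomes and 1.74% on the rest of chromosome 7. The same 3 were the regions with both M15 lists, against 1.25% of regions on all chromosomes and 1.98% on the rest of chromosome 7. They were 3 of the 5 regions with any M15 peak, against 11% on all chromosomes and 21.1% on the rest of chromosome 7. Of those 5, 4 also had a peak in a KTS-minus list, against 72.4% on all chromosomes. All 3 of these also had a peak in both KTS-minus lists, against 93.7% of the 5688 such regions on all chromosomes. Of the 75 regions, 66 (88.0%) were listed in a single library, against 78.3% on all chromosomes and 86.4% on the rest of chromosome 7. Of these 66, 65 came from a KTS-minus list. With 3 and 5 regions behind them, these shares are imprecise.

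The first shared region ran from 150193107 to 150196167, 343.1 kb after the Igf2 interval. Its max signal was 17 in M15 replicate 1, 19 in M15 replicate 2, 18 in KTS-minus replicate 1 and 16 in KTS-minus replicate 2. Although these numbers are alike, their places in the lists were not, since the lists differ in length and scale. The peak stood 91.5% down the list of M15 replicate 1 and 3.42% down that of M15 replicate 2. In KTS-minus replicates 1 and 2 it stood 12.9% and 74.5% down. As percents, the places of the 2 replicates were thus far apart in both lines. In M15 this carries the difference in list length. The M15 ranks were 5893 of 6440 and 2081 of 60925, both within the 6440 strongest peaks.

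The second shared region, 2.81 kb further on, ran from 150198979 to 150203397 and was the strongest of the domain by total signal, the coverage summed over a peak. It held the peak with the highest total signal of the domain in every list: 20351 in M15 replicate 1, 13834 in M15 replicate 2, 25042 in KTS-minus replicate 1 and 24125 in KTS-minus replicate 2. The same peaks were the widest of the domain in every list, at 2505 bp, 3643 bp, 3265 bp and 1982 bp. Total signal grows with width, so both orders share that. Their max signals were 27, 13, 29 and 27, in the same order of libraries. By total signal they stood 33.2% and 2.95% down the M15 lists and 2.08% and 1.73% down the KTS-minus lists. KTS-minus replicate 2 listed a second peak in this region, with a max signal of 21. The M15 replicate 1 peak began after that second peak had ended, so it covered only the later part of the region.

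The third shared region lay 50.1 kb after the second, from 150253476 to 150256254, and ended 388.7 kb before the Cdkn1c position. Its max signal was 32 in M15 replicate 1 and 41 in KTS-minus replicate 2, the highest of the domain in each of those lists. In M15 replicate 2 it was 9 and in KTS-minus replicate 1 it was 16. Here M15 replicate 1 and KTS-minus replicate 2 ranked the region first among their domain peaks, while KTS-minus replicate 1 ranked it 10th of 56.

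**Figure D3:**
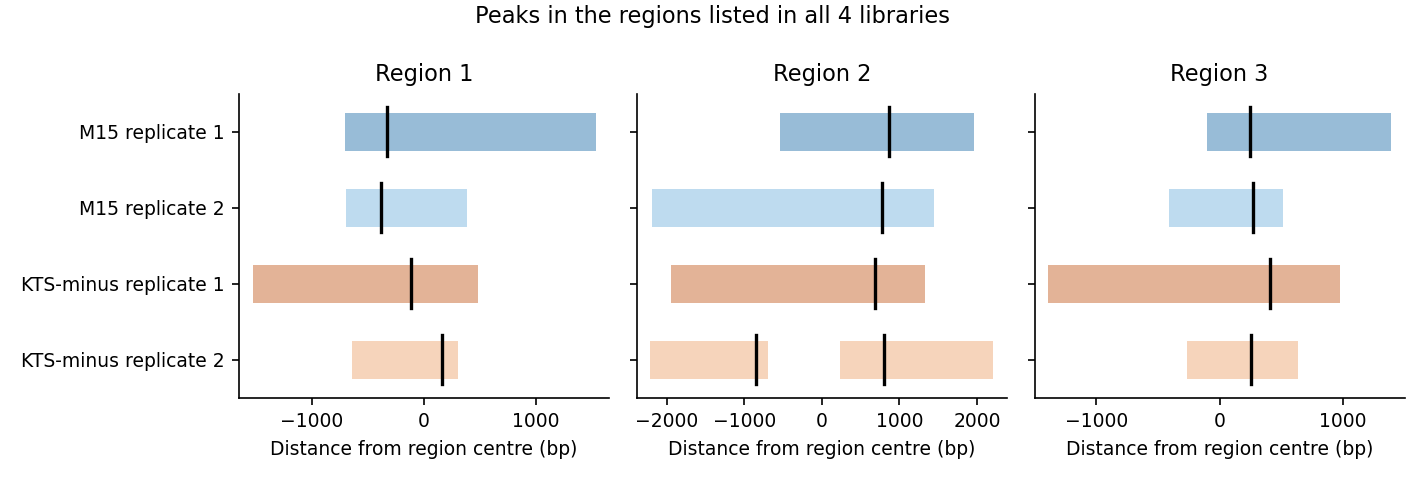
Peaks of the 4 libraries in the 3 regions listed in all of them, drawn as bars against distance from the centre of the region in bp. The black ticks mark the centre of the stretch that reaches the highest signal of each peak. In region 2, KTS-minus replicate 2 has 2 peaks where the other lists have 1.

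Over all 4 libraries, the points of highest coverage lay about equally close in the third and second shared regions and were most spread in the first. In the third region the centres of these stretches fell within 25.5 bp in M15 replicate 1, M15 replicate 2 and KTS-minus replicate 2. KTS-minus replicate 1 widened the range to 164.5 bp of 2779 bp. In the second region, taking the stronger of the KTS-minus replicate 2 peaks, the 4 centres fell within 174 bp of 4419 bp. Without KTS-minus replicate 1 they fell within 84 bp. In the first they spread over 542 bp of 3061 bp, and over 268.5 bp without KTS-minus replicate 2. The stretches themselves are short, and in none of the 3 regions did those of all 4 libraries, of both M15 libraries or of both KTS-minus libraries share a base.

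The span from the start of the first to the end of the third shared region was set after the values had been seen. The M15 peaks in it, 3 of 3 and 3 of 5, are the ones that define it. It held 12 of 56 peaks in KTS-minus replicate 1 and 9 of 28 in KTS-minus replicate 2. That was 19 and 14.3 peaks per 100 kb, against 4.70 and 2.03 in the rest of the window, or 4.05 and 7.03 times as many. The share of the domain's total signal inside the span was 31.7% and 43.9% in KTS-minus and 81.9% in M15 replicate 2. The span was drawn around shared regions, so these values are a description. No other span was compared with it.

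KTS-minus libraries shared 9 regions of the domain, 12.2% of the 74 with any KTS-minus peak, against 18.9% on all chromosomes (18.3% of regions with any peak) and 11.2% on the rest of chromosome 7. Of the 9, 3 were the regions found in all lists. One more, from 150481908 to 150483449, also held a peak of M15 replicate 2. Its max signal was 6 there, 11 in KTS-minus replicate 1 and 14 in KTS-minus replicate 2.

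The other 5 had no M15 peak, or 55.6% of the 9, against 73.7% on all chromosomes and 62.7% on the rest of chromosome 7. They are named here because they are few, after their values were seen. Inside the span were the regions from 150207368 to 150208588 (max signal 17 and 26 in KTS-minus replicates 1 and 2), from 150223755 to 150225740 (17 and 11) and from 150237219 to 150239028 (6 and 11). Outside it were the region from 150417910 to 150418856 (9 and 19) and the one beside Cdkn1c. None of the 5 was among the upper 10% of either list. The only region with an M15 peak and no KTS-minus peak ran from 150029281 to 150029958 in M15 replicate 2, with a max signal of 10, and M15 replicate 1 did not list it.

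By rank of max signal the domain's peaks were spread through their lists. The upper 10% of a list held none of the 3 peaks of M15 replicate 1, 2 of 5 in M15 replicate 2, 3 of 56 in KTS-minus replicate 1 and 1 of 28 in KTS-minus replicate 2. The upper 50% held none of 3, 4 of 5, 19 of 56 and 15 of 28. At equal list length, keeping the 6440 strongest peaks by max signal, 3, 2, 1 and 1 domain peaks were left, in the same order of libraries. That reduction kept 100% of M15 replicate 1, 10.6% of M15 replicate 2, and 2.07% and 2.63% of the KTS-minus lists.

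**Figure D4:**
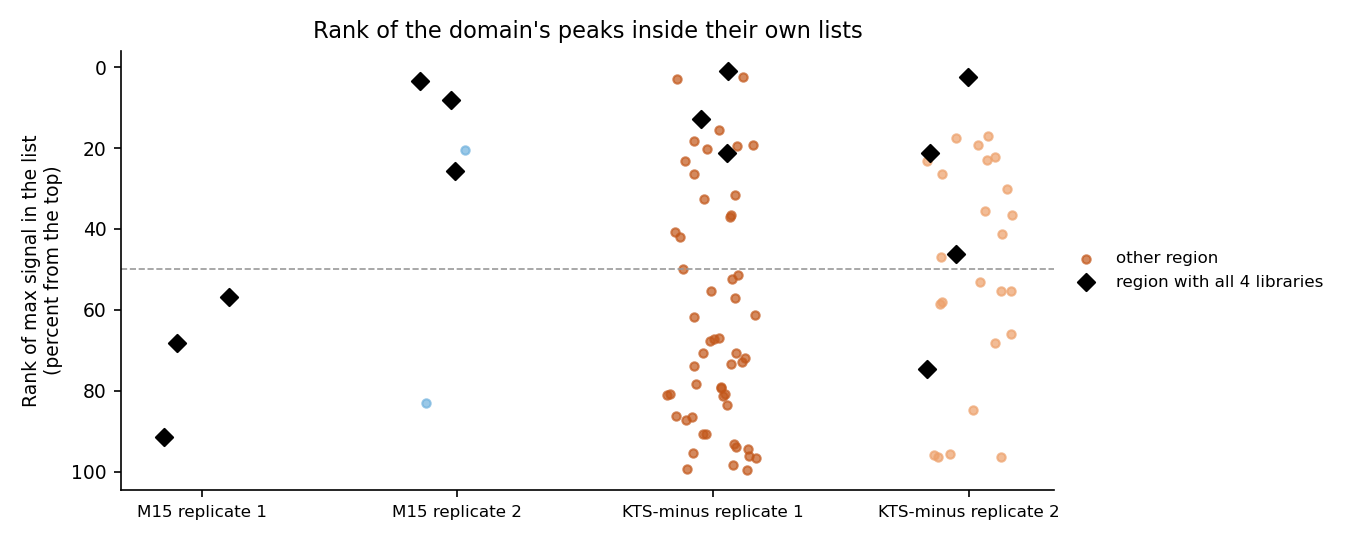
Rank of max signal of each domain peak inside its own list, as percent from the top, so that high points are strong peaks. Black diamonds are peaks in the 3 regions with all 4 libraries, and the dashed line marks the middle of the list. In M15 replicate 1 all 3 peaks lie below that line.

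Median max signal was 27 in M15 replicate 1, against 35 in the rest of that list, and 10 against 7 in M15 replicate 2. It was 11 against 13 in KTS-minus replicate 1 and 21 against 21 in KTS-minus replicate 2. Max signal ranged from 17 to 32, from 6 to 19, from 6 to 29 and from 11 to 41 in the 4 lists. Median width was 2236 bp in M15 replicate 1 (1673 bp in the rest of the list) and 1023 bp in M15 replicate 2 (1009 bp). In KTS-minus replicates 1 and 2 it was 997.5 bp (1108 bp) and 730 bp (684 bp). The narrowest peaks measured 1489 bp, 678 bp, 503 bp and 299 bp in the same order of libraries.

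Peaks in the 3 regions with all 4 libraries had a larger median width than the other domain peaks in the 3 lists that had both kinds, with overlapping ranges. The median width was 2366 bp for 3 peaks, against 984 bp for 53 others in KTS-minus replicate 1, and 1229 bp for 4 peaks, against 680 bp for 24 others in replicate 2. In M15 replicate 2 it was 1080 bp for 3 peaks, against 850.5 bp for 2. Median max signal was 18 against 11 in KTS-minus replicate 1 and 24 against 20.5 in KTS-minus replicate 2, with overlapping ranges. A wide peak meets peaks of other lists more easily, and the regions were picked for that overlap, so these values are a description.

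By number of peaks the domain was denser than the rest of chromosome 7 in 1 replicate of each line and sparser in the other, and 3 of the 4 directions turned under another setting. Peaks per Mb were 1.98 times those on the rest of the chromosome in M15 replicate 1 and 0.739 times in M15 replicate 2. The ratios were 1.3 in KTS-minus replicate 1 and 0.825 in KTS-minus replicate 2. In the upper 50% of each list by total signal the KTS-minus directions turned, to 0.927 and 1.01 in replicates 1 and 2. By bases covered, M15 replicate 2 turned to 1.02. The mean by number of peaks was 1.36 ± 0.87 in M15 and 1.06 ± 0.34 in KTS-minus (SD, n = 2 each), so the lines overlapped and the difference was smaller than the spread between replicates. Peaks covered 0.623% and 0.735% of the window in M15 replicates 1 and 2 (0.241% and 0.718% of the rest of the chromosome). In KTS-minus they covered 6.23% and 2.30% (4.94% and 2.49%).

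Among 151 windows of 1 Mb laid along chromosome 7 from the start of the domain, 22 held more peaks than the domain in M15 replicate 1, where 84 held none. In M15 replicate 2, 64 held more and 74 fewer. In KTS-minus replicate 1, 41 held more and 109 fewer, and in replicate 2, 92 held more and 52 fewer. Chromosome 7 itself was sparse: its peaks per Mb were 0.626 and 0.293 times the genome's in the M15 lists, and 0.366 times in both KTS-minus lists. DNA copy number was not measured, so fewer copies of the chromosome and fewer bound sites cannot be told apart.

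**Figure D5:**
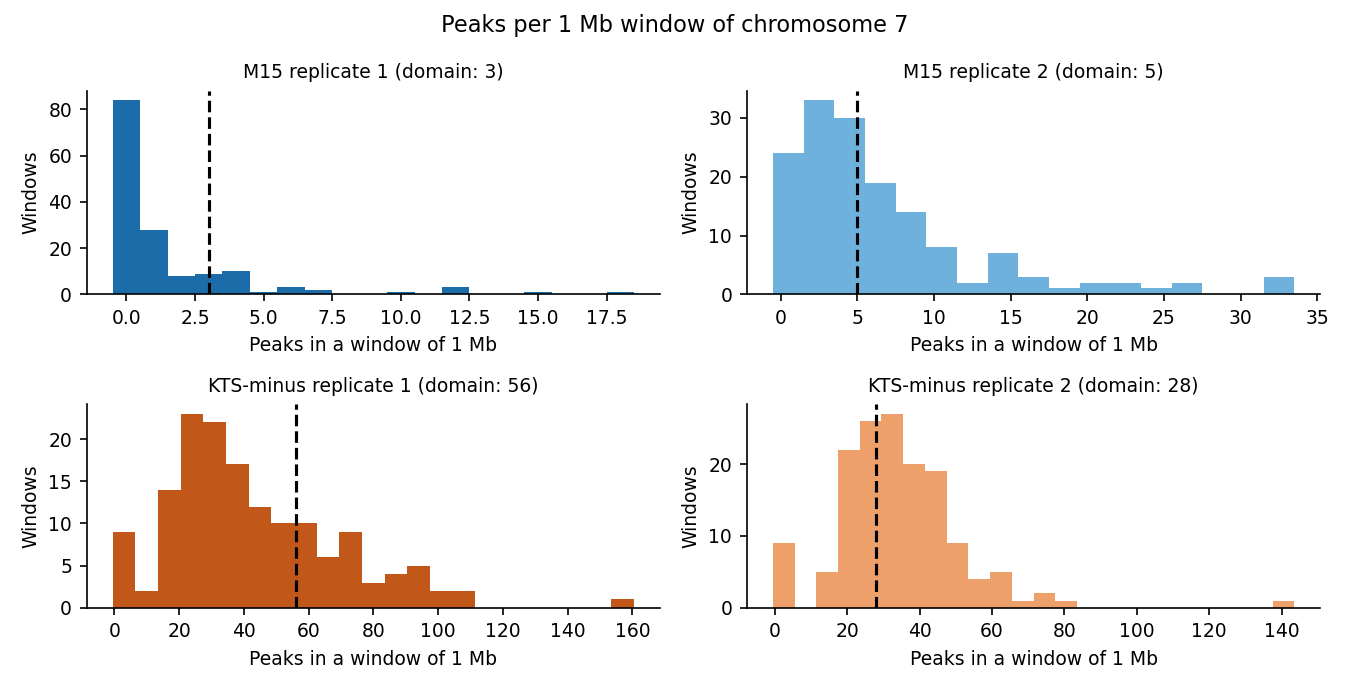
Number of peaks in 151 windows of 1 Mb on chromosome 7, as histograms of windows for each library. The dashed lines mark the domain, at 3, 5, 56 and 28 peaks. The domain lies above the median window (0 and 38) in M15 replicate 1 and KTS-minus replicate 1, at it (5) in M15 replicate 2 and below it (31) in KTS-minus replicate 2.

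The window's borders cut off no peak. Just before it, M15 replicate 1 listed a peak from 149667133 to 149669566 (max signal 21) and M15 replicate 2 one from 149667235 to 149668339 (max signal 10). These overlap, 30.4 kb and 31.7 kb from the border, and would have been a further region shared by the M15 lists in a wider window. After the window the next M15 peaks were 315.4 kb and 34.96 kb away, with max signals of 28 and 9. The first peaks inside the window had max signals of 17, 10, 8 and 25 in M15 replicates 1 and 2 and KTS-minus replicates 1 and 2, and the last ones 32, 6, 18 and 29. In KTS-minus the nearest peaks outside lay 9.10 kb and 12.6 kb before the window and 3.58 kb and 2.70 kb after it.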

How the data were processed

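CUT&RUN peak lists of 4 WT1 libraries were used, 2 of M15 and 2 of KTS-minus. The submitters' processing notes name the build mm9, SEACR 1.3, which calls peaks from coverage, and, with no order or role, Bowtie2 2.2.6, SAMtools 1.3, Picard 2.5.0, FastQC 0.11.8 and bedtools 2.23.0. The authors deposited, per library, each peak's total and max signal, in whole numbers of coverage. How coverage was scaled, and with which control, threshold and use of the yeast spike-in, is not given in the sources used here. For that reason signal was ranked only inside a list (column 5, ties by total signal), and read depth is unknown.

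The window and the gene positions, in mm9, define the members. Peaks were merged at an overlap of 1 bp or more, and "near" means within 10 kb. The merging was tested on simulated sites spaced so that none could join by accident. Joining by accident or through a chain of peaks was therefore not tested. The members, lists and alternatives were chosen with earlier results of these data known. No test between lines was made, because the smallest exact permutation p for 2 libraries a line is 0.333. Wilson intervals cover counting error only, and neighbouring regions are not independent. Named regions were those shared by all 4 lists, the nearest peak to each gene, and the strongest and widest peak of each list. No mm9 genome was used. Of 24 genes on the domain's list, all were found in RefSeq's GRCm38.p6 table, used for names, order and promoter sequence only, and 15 had a promoter window. Computation used Python 3.11.15, numpy 2.4.6, pandas 2.3.3, scipy 1.17.1 and matplotlib 3.10.9.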

Additional observations from a re-analysis of the deposited data

How the results depend on the processing

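Of 80 alternative values, 52 stayed within limits (for counts 1.5 times, for density ratios the SD of the line) and 28 moved. This tally does not measure stability. Near-gene counts of 0 could not move within 5 kb or in the upper 50% of a list. The SD comes from n = 2, and a ratio could change direction within it. M15 replicate 2 did so by bases covered (0.739 to 1.02), and KTS-minus replicate 2 in the upper 50% (0.825 to 1.01). Counting only peaks wholly inside the window, or by their stretch of highest signal, changed no count of peaks in the domain. Keeping the upper 50% of each list by total signal left 1, 3, 14 and 14 domain peaks in M15 replicates 1 and 2 and KTS-minus replicates 1 and 2. It turned the density ratio of KTS-minus replicate 1 to 0.927, below the rest of the chromosome, and that of KTS-minus replicate 2 to 1.01, above it. Under it the near-gene counts of KTS-minus replicate 1 fell to 0 at Igf2 and 0 at Cdkn1c, and that of replicate 2 to 0 at Cdkn1c.

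The shared regions depended on how overlap was asked. Regions in all 4 libraries numbered 1 with a 50% reciprocal overlap, 0 when stretches of highest signal were overlapped, 1 in the upper 50% of lists and 0 in lists of equal length. Under the same 4 settings in turn, regions in both M15 libraries numbered 1, 0, 1 and 2. Regions in both KTS-minus libraries numbered 3, 0, 3 and 0. Leaving out 1 library at a time gave 3 to 4 regions in all libraries left, the 4 without M15 replicate 1. Without M15 replicate 1 or 2, the single M15 library left had 3 to 5 regions, and without KTS-minus replicate 1 or 2 the single one left had 27 to 56. Within 5 kb the Igf2 count of KTS-minus replicate 2 was 0, and the Cdkn1c counts of KTS-minus replicates 1 and 2 were 1 and 0. Within 20 kb the H19 count of KTS-minus replicate 2 was 1, the Igf2 count of KTS-minus replicate 1 was 2 and the Cdkn1c count of KTS-minus replicate 2 was 2. The M15 counts near the 3 genes were already 0 within 10 kb. A shorter distance or the upper 50% of a list could therefore only give 0 again. The setting that could have changed them, 20 kb, also gave 0. No paired analysis was possible because no result comes from a test between the lines.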

Other observations

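Promoter windows of the other genes of the domain's list also held the searched letters. Of 24 windows from 15 genes, Igf2 included, 1 held GCGTGGGNG, 1 held GCGGGGGCG, 2 held GTGGGAGG and 7 held CCNCCCCC. The list was not limited to genes inside the mm9 window, so these are not counts for that window. Over all 32851 windows, not matched for GC content, the shares were 1.90%, 2.91%, 4.52% and 24.7%. GCGTGGGNG occurred in a Dhcr7 window only, with 2 matches, and GCGGGGGCG in another Dhcr7 window. Dhcr7 encodes an enzyme of cholesterol synthesis and was on the list as a gene beyond the Cdkn1c side of the domain. CCNCCCCC occurred in windows of Ascl2, Dhcr7, Igf2, Mrpl23, Osbpl5 and Th. Th encodes tyrosine hydroxylase and Ascl2 a transcription factor of the placenta. The Kcnq1ot1 window held none of the 4 motifs. These counts describe letters in reference sequence and were not joined to peaks.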
